A study of Mus musculus with 6 samples.

Results

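The 10 circadian clock genes *Arntl*, *Clock*, *Npas2*, *Per1*, *Per2*, *Per3*, *Nr1d1*, *Nr1d2*, *Dbp* and *Ciart* were followed across 6 RNA-seq libraries of mouse small intestinal adenomas. They were chosen by gene name as core clock and clock output genes, and each was found once among the 48440 genes in the deposited tables. The level of each gene is its FPKM, a fragment count scaled for transcript length and library size. All 10 reached a mean of at least 1 FPKM and so were among the 14240 genes tested. There were 3 libraries from ApcMin adenomas (QC4, QC5 and QC6) and 3 from ApcMin.PCdel adenomas (QC3, QC8 and QC10). All mice carried the ApcMin allele, which predisposes the intestine to adenomas, and a Rosa26 allele that makes diphtheria toxin A only where Cre is active. The PCdel mice also carried Cre as a knock-in at *Defa4*, which is active in Paneth cells (PCs), the antimicrobial secretory cells of the crypt base, so that cells of this lineage are killed. The controls were littermates without Cre. The labels give a C57BL/6 background and an age above 42 days for all of them. The time of day at which each adenoma was taken is not given in the sources used here. The labels also do not say that the libraries came from separate mice, so the p-values measure the spread between these samples.

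The deposited tables place the genes on GRCm38, with 1 value per gene. The activators are *Arntl* (chr7:113207465-113314126, plus strand), *Clock* (chr5:76209868-76304792, minus) and *Npas2* (chr1:39193731-39363236, plus). The *Per* genes are *Per1* (chr11:69095217-69109960, plus), *Per2* (chr1:91415982-91459324, minus) and *Per3* (chr4:151003652-151044665, minus). *Nr1d1* (chr11:98767932-98775333) and *Nr1d2* (chr14:18204054-18239127) are both on the minus strand, as is *Ciart* (chr3:95878503-95882251), and *Dbp* (chr7:45705088-45710203) is on the plus strand.

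The clock is a loop of transcription that turns over about once a day in most cells, the intestinal epithelium included. ARNTL (BMAL1) pairs with CLOCK or NPAS2 and switches on genes through the E-box, among them the *Per* and *Cry* genes, *Nr1d1*, *Nr1d2*, *Dbp* and *Ciart*. PER, CRY and CIART proteins repress that activity, which closes the loop. NR1D1 and NR1D2 (REV-ERB alpha and beta) are nuclear receptors that repress *Arntl* and several other genes through the ROR element, and DBP acts through the D-box. In peripheral tissues *Arntl* is therefore known to peak when *Dbp* and *Nr1d1* are low, with *Per2* and *Per3* peaking later than *Nr1d1*. Because of this order, a single library carries some information on clock phase in the balance between *Arntl*, *Dbp* and the *Per* genes.

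These elements can be read in the promoters of the genes, and the sequences are printed because the loop runs through them. RefSeq promoter windows of 250 bases before to 50 bases after each annotated start (GRCm38.p6) were found for 9 of the 10 genes, all but *Per2*. Capitals mark a match on either strand to the E-box CACGTG in *Ciart* and *Per1*, to the D-box TTATGTAA in *Per3*, and to the ROR element in *Arntl*. The *Ciart* stretch is chr3:95882229-95882378 on the minus strand. The *Per1* stretch is chr11:69098749-69098898 on the plus strand. The *Per3* stretch is chr4:151044766-151044915 on the minus strand. The *Arntl* site, chr7:113207528-113207556 on the plus strand, lies just inside the first exon of 1 of its annotated starts.
*Ciart*: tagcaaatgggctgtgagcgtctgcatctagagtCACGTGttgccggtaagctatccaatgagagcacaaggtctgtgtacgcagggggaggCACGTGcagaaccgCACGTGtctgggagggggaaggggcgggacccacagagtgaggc
*Per1*: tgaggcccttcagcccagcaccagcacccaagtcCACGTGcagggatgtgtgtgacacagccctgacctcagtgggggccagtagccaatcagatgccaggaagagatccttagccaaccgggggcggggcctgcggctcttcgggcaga
*Per3*: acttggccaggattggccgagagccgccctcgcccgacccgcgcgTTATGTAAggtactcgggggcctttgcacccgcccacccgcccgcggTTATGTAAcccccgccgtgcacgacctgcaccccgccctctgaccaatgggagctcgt
*Arntl*: ggaaggcagAAAGTAGGTCAgggacggag
*Ciart* held 3 E-boxes, *Per1* held 1, *Per3* held 2 D-boxes and *Arntl* held 1 ROR element. Of all genes with a window, 8.09% held an E-box, 1.11% the D-box and 0.459% the ROR element. A match is a description of these letters and not a bound site. No match overlapped another, and the other windows of the members held none of the 3 motifs. Counted from the annotated start, the E-boxes began at -116, -58 and -44 in *Ciart* and at -166 in *Per1* (from 1 of its starts), the D-boxes at -205 and -158 in *Per3*, and the ROR element at 27 in *Arntl*.

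The libraries were of like depth, between 5.407 and 5.876 gigabases of aligned sequence. Markers of epithelium (*Epcam*, *Vil1*, *Cdh1*, *Krt8* and *Krt18*) summed to between 3527 and 4948 FPKM, and the Wnt-driven genes of ApcMin adenomas (*Axin2*, *Lgr5*, *Ascl2*, *Notum* and *Nkd1*) to between 97.16 and 199.0 FPKM. The 6 PC markers *Lyz1*, *Defa21*, *Defa22*, *Defa24*, *Mmp7* and *Itln1* summed to between 2996 and 4699 FPKM in the PCdel libraries and to between 4961 and 9750 FPKM in the ApcMin libraries, with no overlap. *Lyz1*, *Defa21* and *Defa22* did not overlap between the genotypes, whereas *Defa24*, *Mmp7* and *Itln1* did. Smooth muscle, fibroblast and leukocyte markers were also present, at summed levels of 211.0 to 448.4, 185.3 to 377.5 and 28.92 to 39.53 FPKM. In such bulk samples, fewer cells of a type and less RNA per cell cannot be told apart. ApcMin library QC6 stood apart from the rest. It was the lowest of the 6 libraries in 46.1% of the genes tested, and its 6 enterocyte markers (*Alpi*, *Fabp1*, *Fabp2*, *Apoa1*, *Sis* and *Lct*) summed to 17190 FPKM against 6592 to 12870 FPKM in the other libraries. Its 4 hemoglobin genes summed to 1926 FPKM against 208.0 to 926.3 FPKM. PCdel library QC10 had the next highest enterocyte sum, which lay in *Apoa1* and *Fabp2* (7618 and 3509 FPKM), while *Alpi* was lowest there (194 FPKM). Exocrine pancreas markers summed to less than 0.5 FPKM in each library, with *Cel*, *Cpa1*, *Pnlip* and *Prss2* listed at 0 in all 6.

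By mean FPKM over the 6 libraries, *Nr1d2* was the most abundant of the clock genes (14.4 ± 1.98, SD, n = 6), followed by *Dbp* (11.9 ± 3.75), *Nr1d1* (11.3 ± 4.32) and *Clock* (11.0 ± 1.47). Below them came *Per2* (7.12 ± 2.04), *Per1* (6.15 ± 1.55), *Npas2* (3.73 ± 0.413), *Arntl* (3.63 ± 0.674), *Per3* (2.84 ± 0.47) and *Ciart* (2.29 ± 0.715). Most neighbours in this order differed by less than the larger of their SDs. The exceptions were the steps from *Clock* to *Per2*, from *Per1* to *Npas2* and from *Arntl* to *Per3*. *Clock* exceeded *Per2* and *Per1* exceeded *Npas2* in 6 of 6 libraries, and *Arntl* exceeded *Per3* in 5 of 6. *Arntl* was thus among the less abundant members, and its partner *Clock* was well above it in each library.

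Of the activators, *Arntl* was expressed at 3.64, 3.15 and 3.04 FPKM in the ApcMin libraries QC4, QC5 and QC6 and at 3.57, 3.46 and 4.92 FPKM in the PCdel libraries QC3, QC8 and QC10. QC10 stood above the other libraries, which lay between 3.04 and 3.64 FPKM. *Clock*, the partner of ARNTL, was at 12.1, 8.73 and 12.2 FPKM in QC4, QC5 and QC6 and at 11.3, 12.2 and 9.75 FPKM in QC3, QC8 and QC10. Its lowest values were in 1 library of each genotype, QC5 and QC10. *Npas2*, which can take the place of *Clock*, was at 3.99, 3.39 and 4.31 FPKM and at 3.23, 3.94 and 3.53 FPKM, respectively, and varied least of the members (1.33-fold from lowest to highest).

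Of the REV-ERB genes, *Nr1d1* varied more than the activators, whereas *Nr1d2* (1.54-fold from lowest to highest) varied less than *Arntl* (1.62-fold). *Nr1d1* was at 13.4, 13.4 and 7.88 FPKM in the ApcMin libraries QC4, QC5 and QC6 and at 15.8, 13.2 and 4.28 FPKM in the PCdel libraries QC3, QC8 and QC10. QC10 was the lowest and QC6 the next, and the other libraries lay between 13.2 and 15.8 FPKM. The spread of 3.69-fold was the widest of the members. *Nr1d2* was at 14.3, 15.5 and 14.6 FPKM in QC4, QC5 and QC6 and at 16.3, 15.0 and 10.6 FPKM in QC3, QC8 and QC10, so that QC10 was again lowest while QC6 was not set apart. QC6 and QC10 were also the libraries with the highest enterocyte sums, and the part of cell makeup in *Nr1d1* was not tested. Exons of *Nr1d1* overlap those of the oppositely oriented gene *Thra* over 263 bases (8.55% of its exon bases), and reads there cannot be assigned without strand. *Thra* itself stayed between 13.6 and 19.0 FPKM, with 16.9 FPKM in QC10.

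The output gene *Dbp*, a PAR bZIP transcription factor, was at 12.7, 11.8 and 15.0 FPKM in QC4, QC5 and QC6 and at 16.2, 9.36 and 6.03 FPKM in QC3, QC8 and QC10. The PCdel libraries held both the highest and the lowest value, and the ApcMin values fell between them. *Ciart*, which encodes a repressor of CLOCK and ARNTL, was at 2.19, 2.68 and 2.55 FPKM and at 3.14, 2.17 and 1.03 FPKM, respectively. For *Nr1d1*, *Nr1d2*, *Dbp* and *Ciart* alike, QC3 was the highest library and QC10 the lowest. QC10 was at 0.32 of the median of the other 5 libraries for *Nr1d1*, 0.404 for *Ciart*, 0.476 for *Dbp* and 0.709 for *Nr1d2*. *Dbp* exons overlap *Sphk2* on the other strand over 18.0% of their bases, and *Sphk2* lay between 17.8 and 23.2 FPKM, with 19.1 FPKM in QC10. Another annotated gene, Gm9176, holds 20.8% of the 31-mers of *Ciart* transcripts, so the reads of *Ciart* are uncertain in part, and AC170187.1 holds 9.51% of those of *Nr1d2*. Neither Gm9176 nor AC170187.1 was found by name in the deposited data, so their levels could not be given.

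The *Per* genes, which encode the PERIOD repressors, did not all put the libraries in 1 order. *Per1* was at 5.92, 5.34 and 7.51 FPKM in the ApcMin libraries QC4, QC5 and QC6 and at 7.49, 7.09 and 3.56 FPKM in the PCdel libraries QC3, QC8 and QC10, and was lowest in QC10 as *Dbp* was (0.501 of the median of the others). *Per2* was at 4.54, 7.14 and 9.09 FPKM in QC4, QC5 and QC6 and at 5.68, 9.89 and 6.39 FPKM in QC3, QC8 and QC10. *Per3* was at 2.36, 3.02 and 3.53 FPKM and at 2.43, 3.16 and 2.53 FPKM, respectively. *Per2* and *Per3* put the libraries in the same order, QC4, QC3, QC10 and QC5 from the lowest upwards, and differed only in which of QC6 and QC8 was highest. The sequence of *Per1*, *Per2* and *Npas2* was not shared with another annotated gene (0% of 31-mers), and that of *Per3* was shared at 0.652%.

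**Figure D1:**
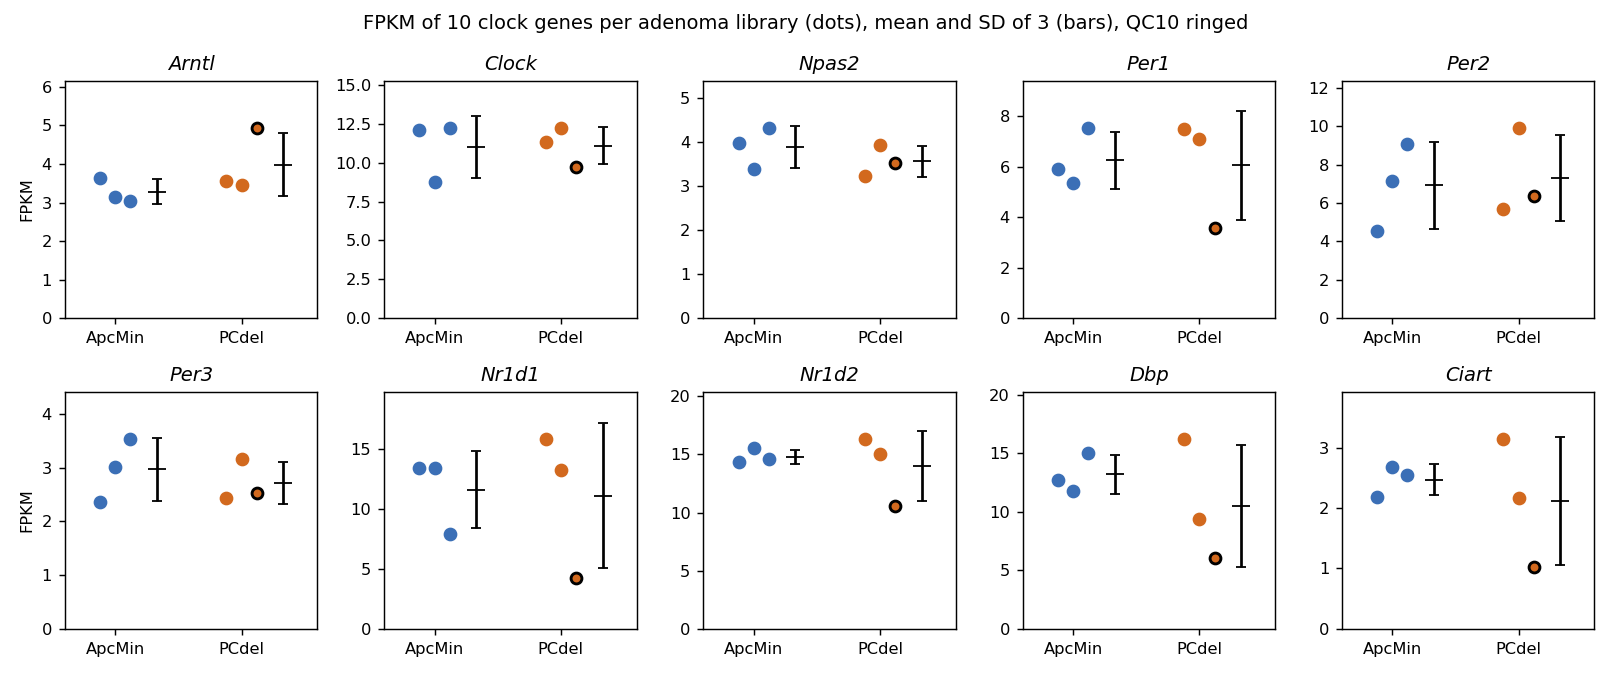
FPKM (vertical axes, from 0) of each of the 10 clock genes in the 3 ApcMin libraries (blue, QC4, QC5 and QC6 from left to right) and the 3 PCdel libraries (orange, QC3, QC8 and QC10), with bars for the mean and SD of 3. The ringed library QC10 lies below all others for *Per1*, *Nr1d1*, *Nr1d2*, *Dbp* and *Ciart* and above them for *Arntl*.

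QC10 was thus the lowest of the 6 libraries for 5 of the 10 clock genes and the highest for 1, and lay outside the range of the others in 6. Over all genes tested, QC10 was lowest in 13.0% and highest in 16.6%. QC6, in contrast, was highest in 4 clock genes (*Clock*, *Npas2*, *Per1* and *Per3*) although it was highest in only 12.5% of all genes. Its lead was slight for *Clock* (12.21 FPKM against 12.15 FPKM in QC8) and for *Per1* (7.51 FPKM against 7.49 FPKM in QC3). QC3 was also highest in 4 clock genes, and in 16.1% of all genes. QC10 had the most aligned sequence (5.876 gigabases). The range from the lowest to the highest library had a median of 0.74 on the log2(FPKM + 1) scale over the clock genes, against 0.46 over all genes tested. A range of this size was not particular to the clock genes. Among the lists described below, the median was 0.61 for other clock genes and 0.71 for immediate-early genes. It was 1.27 for glucocorticoid response genes and 1.3 for temperature response genes. The ranges of *Nr1d1* (1.67), *Dbp* (1.30) and *Ciart* (1.03) exceeded those of 96.1%, 93.2% and 88.3% of the genes tested, whereas that of *Npas2* (0.33) exceeded those of 26.0%.

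To place each library by phase, the level of *Arntl* was set against *Dbp* and the *Per* genes. The index is the log2(FPKM + 1) of *Arntl* minus the mean of *Dbp*, *Per1*, *Per2* and *Per3* on that scale, so that a high value means much *Arntl* for the amount of *Dbp* and *Per*. It was -0.48, -0.79 and -1.14 in the ApcMin libraries QC4, QC5 and QC6 and -0.74, -0.82 and 0.14 in the PCdel libraries QC3, QC8 and QC10. QC10 alone had an index above 0. It lay 0.62 above the next library, while the other 5 libraries spanned 0.66 in all. The FPKM of *Arntl* was 0.817 of that of *Dbp* in QC10 and between 0.202 and 0.370 of it in the others, and *Arntl* exceeded *Per1* in QC10 only (1.38-fold). The ratio of *Per2*, which is part of the index, to *Nr1d1*, which is not, was 1.49 in QC10 and 1.15 in QC6. It was between 0.338 and 0.749 in the other libraries. QC10 and QC6 thus had the highest ratios, although they lay at opposite ends of the index (0.14 and -1.14).

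**Figure D2:**
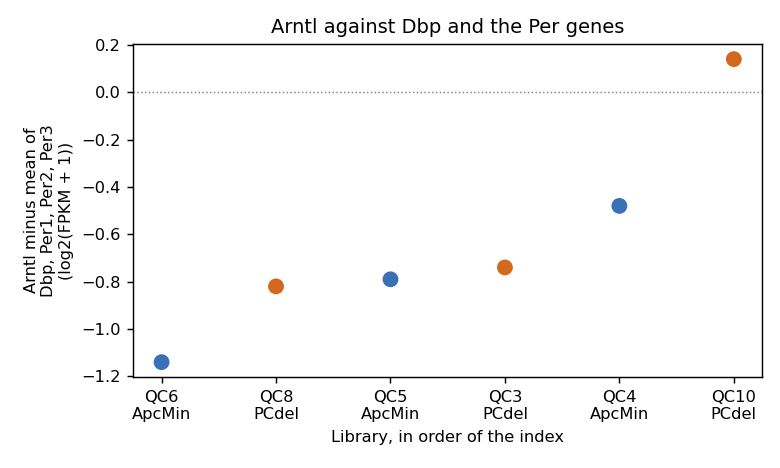
Index of *Arntl* against *Dbp*, *Per1*, *Per2* and *Per3* (vertical axis, difference on the log2(FPKM + 1) scale) for each library, ordered by the index, with ApcMin in blue and PCdel in orange. Libraries of both genotypes alternate between -1.14 and -0.48, and PCdel library QC10 sits apart at 0.14.

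The genotypes overlapped in this index, with means of -0.80 ± 0.33 (SD, n = 3) in ApcMin and -0.47 ± 0.53 (SD, n = 3) in PCdel adenomas. The difference of 0.33 was about the size of the SD within the ApcMin libraries. It was smaller than the SD within the PCdel libraries, QC10 included, and came to 0.03 without QC10. In the other 5 libraries, both genotypes were therefore close in the mean balance of *Arntl* to *Dbp* and *Per*. The genotypes were not balanced for the library that departs, since the 1 library with a high index was a PCdel library. As no collection time is given, the index could not be set against one.

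Across the 6 libraries, *Arntl* was set against each of the other 9 members on the log2(FPKM + 1) scale. The correlation was negative for all 9, against 39.5% of the genes tested. The 9 include the activators *Clock* and *Npas2*, for which the order of peaks described above gives no phase opposite to *Arntl*. Pearson's r was -0.86 for *Ciart* (exact two-sided permutation p = 0.0681 over 720 pairings of the libraries), -0.86 for *Nr1d2* (exact p = 0.0917), -0.79 for *Dbp* (exact p = 0.075) and -0.79 for *Per1* (exact p = 0.0819). It was -0.65 for *Nr1d1*, -0.61 for *Per3*, -0.37 for *Per2*, -0.31 for *Npas2* and -0.24 for *Clock*, with exact permutation p between 0.163 and 0.64. Spearman's rho was -0.77 for *Per3* (exact permutation p = 0.103), -0.66 for *Per2*, -0.60 for *Per1*, -0.49 for *Ciart* and for *Nr1d2*, -0.37 for *Dbp* and for *Clock*, -0.26 for *Npas2* and 0.03 for *Nr1d1*, with exact p from 0.175 to 1.0 for those after *Per3*. None of the 9 relations passed 0.05, where 3.97% of all genes did, and the Benjamini-Hochberg adjusted p over the 14239 genes set against *Arntl* was 1.0 for each.

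Most of these relations rested on QC10. Without it, r became 0.75 for *Nr1d1*, 0.09 for *Nr1d2*, 0.03 for *Per1*, -0.10 for *Dbp*, -0.14 for *Ciart* and 0.36 for *Clock*, while it was -0.85 for *Per3*, -0.63 for *Per2* and -0.26 for *Npas2*. *Per3* and *Per2* thus had the more negative values among the other 5 libraries, and *Nr1d1* a positive one. Over all 6 libraries, r also moved with the normalization. For *Per3* it was -0.33 with median centring and -0.28 with quantile normalization, and for *Per2* -0.21 and -0.26. For *Nr1d1* it was -0.88 with either. With the 2 libraries farthest from the median of *Arntl* left out (QC10 and QC6), r over the remaining 4 was positive for 5 of the 9 genes. These were *Clock* (0.91), *Per1* (0.58), *Npas2* (0.38), *Nr1d1* (0.36) and *Dbp* (0.31), and r was -0.72 for *Per3*, -0.48 for *Per2*, -0.25 for *Nr1d2* and -0.17 for *Ciart*. With values centred on the mean of each genotype, all 9 remained negative, from -0.90 for *Nr1d2* to -0.07 for *Npas2*.

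**Figure D3:**
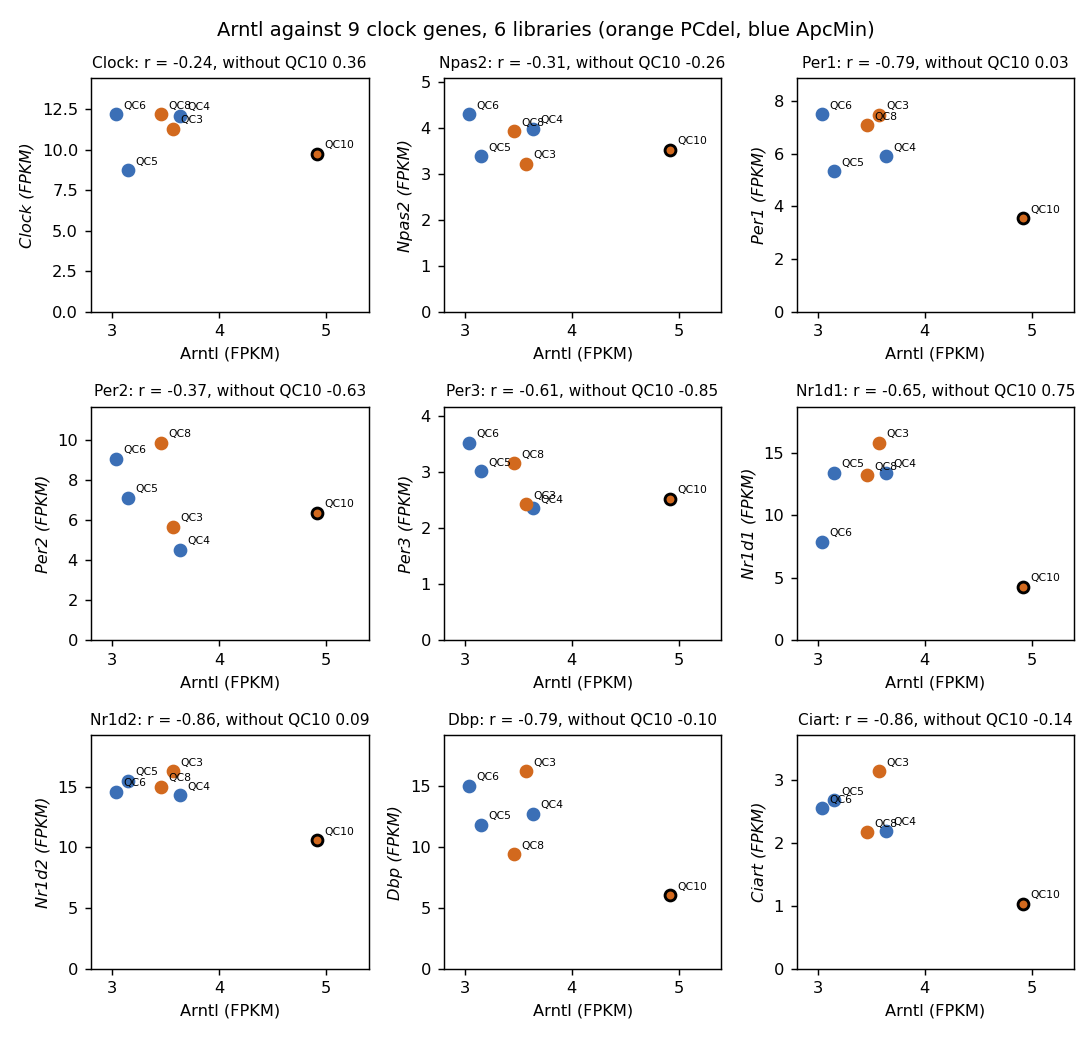
FPKM of *Arntl* (horizontal axes, from 2.8) against FPKM of each of the other 9 clock genes (vertical axes, from 0) in the 6 libraries, with ApcMin in blue, PCdel in orange and QC10 ringed. QC10 stands alone at the right. The r above each panel, from -0.86 to -0.24, was computed on log2(FPKM + 1) and is given beside its value without QC10.

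To ask whether loss of the PC lineage went with a change of the clock genes, the genotypes were compared with limma on log2(FPKM + 1) over all 14240 genes. Of the 10 clock genes, 0 passed a Benjamini-Hochberg adjusted p of 0.05 (0.014% of all genes did), 0 had an unadjusted p under 0.05 (3.38% of all genes), and in 0 did the groups of libraries not overlap (7.54% of all genes). The adjusted p from limma was 1.0 for each clock gene. The largest difference was that of *Dbp*, whose mean FPKM was 10.5 ± 5.21 in PCdel and 13.2 ± 1.66 in ApcMin adenomas (SD, n = 3 each). Its log2 difference was -0.39 (standard error 0.31), and the 95% interval ran from -1.13 to 0.35 (exact two-sided permutation test, p = 0.5, where 3 libraries against 3 allow no value below 0.1). For *Arntl* the means were 3.98 ± 0.814 and 3.28 ± 0.321 FPKM (n = 3 each), and the log2 difference was 0.21 (standard error 0.14, interval -0.13 to 0.55, exact permutation p = 0.3). The PCdel mean was the higher in log2 FPKM + 1 for 3 members (*Arntl*, *Clock* and *Per2*), although *Clock* turned to -0.03 with median centring and -0.04 with quantile normalization, and the median difference was -0.10, against 0.04 over all genes, of which 63.1% were higher in PCdel.

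The intervals show what these libraries could tell. For *Npas2* the 95% interval of the fold (PCdel over ApcMin, FPKM + 1) was 0.766 to 1.14, for *Nr1d2* 0.714 to 1.22, for *Per3* 0.733 to 1.20 and for *Clock* 0.782 to 1.30. For *Per1* it was 0.615 to 1.45, for *Per2* 0.676 to 1.65, for *Ciart* 0.566 to 1.32 and for *Nr1d1* 0.419 to 1.85. *Nr1d1* thus had the widest interval of the members, which holds both a fall and a rise. The SD of *Nr1d1* was 6.03 FPKM in the PCdel libraries, QC10 included, and 3.19 FPKM in the ApcMin libraries. Without QC10, the log2 difference was -0.08 for *Dbp*, 0.08 for *Arntl*, 0.33 for *Nr1d1*, 0.20 for *Per1* and 0.07 for both *Ciart* and *Nr1d2*. Those of *Nr1d1*, *Per1*, *Ciart* and *Nr1d2* changed sign.

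**Figure D4:**
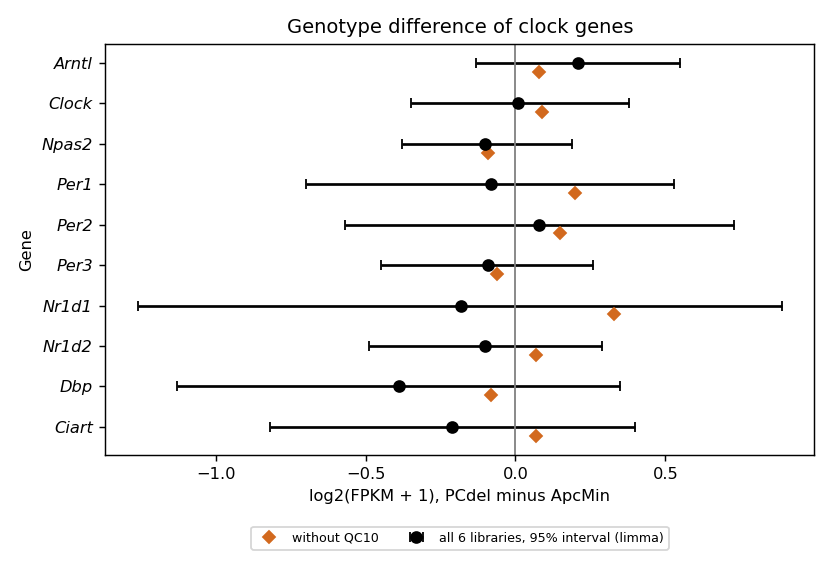
Difference between the genotypes (horizontal axis, log2(FPKM + 1), PCdel minus ApcMin) of each clock gene, with 95% intervals from limma over all 6 libraries (black) and the value without QC10 (orange diamonds). Each interval includes 0, and *Nr1d1* has the widest, from -1.26 to 0.89.

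The rest of the clock was read from a list of 18 further genes, of which 14 were tested. *Rora*, *Bhlhe41*, *Hlf* and *Rorb* had means below 1 FPKM (0.548, 0.242, 0.827 and 0.00595) and were not. Of the 14, 0 passed the adjusted threshold in either direction (0.014% of all genes did) and 0 had an unadjusted limma p under 0.05 (3.38% of all genes). The median difference was 0.12 against 0.04 over all genes tested, and 11 of the 14 were higher in the PCdel mean, against 63.1% of all genes. *Nfil3*, a repressor that competes with DBP for the D-box, had the largest (4.18 ± 0.322 FPKM in ApcMin and 5.75 ± 1.41 FPKM in PCdel, SD, n = 3, log2 difference 0.36, standard error 0.17, limma adjusted p = 1.0).

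Of the 14 tested, 4 were highest in QC10, as *Arntl* was, and 2 were lowest there. Over all genes tested, QC10 was highest in 16.6% and lowest in 13.0%. *Cry1*, which encodes a cryptochrome repressor, was at 6.34, 7.81 and 9.24 FPKM in QC4, QC5 and QC6 and at 6.73, 9.48 and 10.3 FPKM in QC3, QC8 and QC10. *Nfil3* was at 4.21, 4.48 and 3.84 FPKM and at 4.31, 5.79 and 7.13 FPKM, respectively. Both were highest in QC10, as *Arntl* was, and *Nampt* was too (26.0 FPKM against 18.4 to 25.0 FPKM). Pearson's r with *Arntl* was 0.31 for *Cry1* and 0.82 for *Nfil3*. Without QC10 it was -0.64 and 0.31, respectively. *Cry2* and the PAR bZIP gene *Tef* were lowest in QC4 and highest in QC6 (2.52 and 4.76 FPKM, and 16.4 and 27.8 FPKM). *Usp2*, a deubiquitinase gene known as a clock output, was at 25.6 FPKM in QC6 against 6.25 to 12.0 FPKM elsewhere. Its next highest value, 12.0 FPKM, was in QC10, where the output gene *Dbp* was lowest. The casein kinase genes *Csnk1d* and *Csnk1e*, which act on PER proteins, varied 1.19- and 1.66-fold over the libraries.

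**Figure D5:**
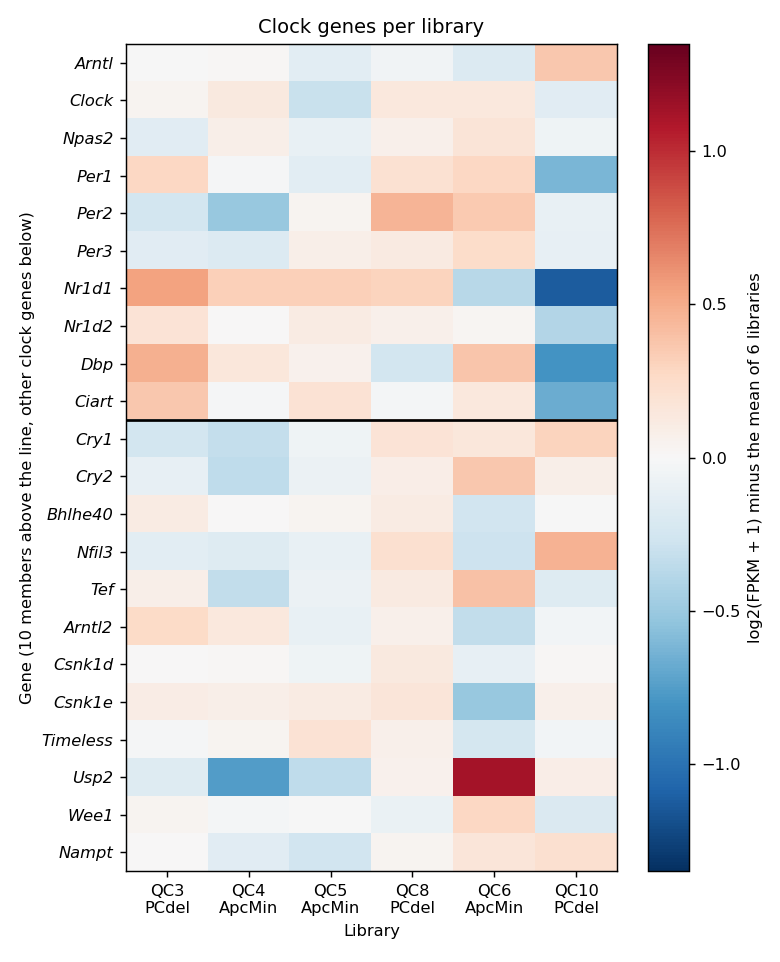
Level of each clock gene in each library as its log2(FPKM + 1) minus the mean of the 6 libraries (color), with the 10 members above the line and other clock genes below it. In QC10, *Nr1d1*, *Dbp*, *Ciart* and *Per1* are low while *Arntl*, *Nfil3* and *Cry1* are high.

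Genes that respond to cues from outside the clock were followed in short lists, and the cues themselves were not measured. Of 5 tested glucocorticoid response genes, 0 passed the adjusted threshold (0.014% of all genes did), and the median difference was 0.14. *Dusp1* had an unadjusted limma p of 0.00895 and a log2 difference of 0.71, where 3.38% of all genes had a p under 0.05. The list summed to 334.8 FPKM in QC6 against 97.37 to 167.1 FPKM in the other libraries, and most of the QC6 sum was *Sgk1*. *Sgk1*, a kinase gene of that list, was at 216 FPKM in QC6 and at most 74.9 FPKM elsewhere, and *Fkbp5* at 51.6 FPKM against at most 31.7 FPKM. *Tsc22d3* and *Zbtb16* were also highest in QC6 (46.7 and 0.786 FPKM). In contrast, *Dusp1* was highest in QC8 (19.1 FPKM, against 8.41 FPKM in QC6) and *Klf9* in QC3 (11.7 FPKM, against 11.1 FPKM in QC6). QC6 was also the library in which *Per1*, itself a gene responsive to glucocorticoids, was highest (7.51 FPKM), but only just above QC3 (7.49 FPKM). The enterocyte sum was highest in QC6 as well (17190 FPKM), and the part of cell makeup in these genes was not tested. Of 7 immediate-early genes, 0 passed the adjusted threshold, and all 7 were higher in the PCdel mean (median difference 0.24), as were 63.1% of all genes tested (median 0.04). *Egr1* and *Fosb* had unadjusted limma p-values of 0.0336 and 0.0381, where 3.38% of all genes were under 0.05. Of the 6 temperature response genes, 0 passed the adjusted threshold (0.014% of all genes did) and the median difference was 0.21. The heat shock genes *Hspa1a*, *Hspa1b* and *Hsph1* were highest in QC3 and lowest in QC10, as *Nr1d1*, *Nr1d2*, *Dbp* and *Ciart* were, with *Hsph1* at 87.7 and 24.4 FPKM. *Hspa1a* and *Hspa1b* are near-identical copies, so their separate levels are uncertain. The cold-inducible RNA-binding protein genes did not share an order. *Cirbp* was highest in QC10 (14.0 FPKM, against 7.62 to 11.5 FPKM in the other libraries), whereas *Rbm3* was highest in QC3 (122 FPKM) and at 84.8 FPKM in QC10. *Dnajb1* was highest in QC3 (28.9 FPKM) and lowest in QC6, and at 24.1 FPKM in QC10.

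The genes most like *Arntl* across the 6 libraries, among those of at least 5 FPKM that were not members, were *Irf8* (r = 0.986), *Prss30* (0.985), *Usf1* (0.982), *Mmadhc* (0.981) and *Tax1bp1* (0.977). The most opposite were *Pmm1* (-0.982), *Muc3* (-0.978), *Slc4a7* (-0.978), *Ubr3* (-0.974) and Gm28439 (-0.968). QC10 was again at the extreme, with *Prss30* at 67.5 FPKM against 16.2 to 26.4 FPKM and *Muc3* at 73.4 FPKM against 234 to 402 FPKM. With 6 libraries, 1.42% of all genes tested had an r of at least 0.9 in either direction, and the Benjamini-Hochberg adjusted p of the exact permutation test was 1.0 for all 10 of these genes. No clock gene of either list reached 0.9. *Nfil3* had the most positive r among them, 0.82 (exact permutation p = 0.0625).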

How the data were processed

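RNA from 6 adenoma samples was prepared with the TruSeq RNA kit and sequenced on a HiSeq2500. Per the paper's methods, reads were aligned in CLC Genomics Workbench 7, and MatLab was used for a normalization whose settings are not given. The authors deposited a coverage signal (mean read coverage per base), FPKM and TPM for each gene and library. Which program and gene set gave these values is not given in the sources used here. The positions of the 10 members are those of GENCODE M21 (GRCm38). Entries of one gene identifier were summed. Depth was read from the most common ratio of coverage to FPKM. Without counts, no counting interval could be given.

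Values were analysed as log2(FPKM + 1), a scale that shrinks differences in weakly expressed genes. Genes with a mean of at least 1 FPKM were fitted with limma 3.58.1 in R 4.3.3 (eBayes with a mean-variance trend), with Benjamini-Hochberg adjustment over all genes. Single values were compared by exact two-sided permutation of the libraries, and correlations by exact permutation of the 720 pairings (numpy 2.4.6). The scripts were tested on simulated data. Genes named are the members, the fixed lists, and the 5 genes most like and most unlike *Arntl*. Some genes of the lists are counted but not reported here by name. The members and lists were chosen with earlier results of these data known. Alternatives were another pseudocount, other filters, quantile normalization, TPM, median centring, genotype-centred values, array quality weights, no trend, and leaving out each library. Shared sequence was counted in 31-mers on either strand of GENCODE M21 transcripts.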

Additional observations from a re-analysis of the deposited data

How the results depend on the processing

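In no alternative did any of the 10 clock genes pass an adjusted p of 0.05, and the smallest adjusted p was 0.683 (*Arntl*, array quality weights). The log2 differences of *Arntl*, *Dbp* and *Npas2* kept their sign under every alternative, and those of *Dbp* ranged from -0.73 to -0.08, with an unadjusted limma p of 0.0129 without QC3 (adjusted p = 1.0). Without QC10, the sign changed for *Nr1d1* (0.33), *Per1* (0.20), *Ciart* (0.07) and *Nr1d2* (0.07). *Per1* was also at 0.16 with array quality weights and 0.04 without QC6, *Per3* at 0.01 without QC6, and *Per2* at -0.16 without QC4 and -0.13 without QC8. *Clock*, at 0.01, came to -0.03 with median centring, -0.04 with quantile normalization, and -0.13, -0.05 and 0.00 without QC5, QC8 and QC3. The number of negative correlations with *Arntl* was 9 in all alternatives but 1. Without QC10 it was 5, r being 0.75 for *Nr1d1*, 0.36 for *Clock*, 0.09 for *Nr1d2* and 0.03 for *Per1*. Leaving out single libraries gave 5 to 9. In 2 such fits a relation passed 0.05 (exact permutation, unadjusted), *Ciart* without QC3 (r = -0.98, p = 0.0333) and *Per1* without QC5 (r = -0.95, p = 0.025). Each of these fits held 9 relations, and over all 6 libraries 3.97% of all genes passed 0.05 against *Arntl*. The difference in the phase index ranged from 0.03 (without QC10) to 0.50 (without QC8). With that index as a covariate, 1 gene of all those tested passed the adjusted threshold, against 2. Leaving out single libraries, r ranged from -0.93 to 0.36 for *Clock*, from -0.92 to 0.75 for *Nr1d1*, from -0.95 to 0.09 for *Nr1d2* and from -0.95 to 0.03 for *Per1*. The log2 difference then ranged from -0.45 to 0.07 for *Ciart*, from -0.13 to 0.09 for *Clock*, from -0.50 to 0.33 for *Nr1d1*, from -0.22 to 0.07 for *Nr1d2*, from -0.25 to 0.20 for *Per1*, from -0.16 to 0.28 for *Per2* and from -0.21 to 0.01 for *Per3*. No paired analysis was possible because ApcMin and PCdel libraries share no replicate numbers. With 3 libraries a group, the exact test cannot go below 0.1, whatever the depth.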
